A study of Bos taurus with 30 samples.

Results

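The 32 genes described here carry glucose from the cell surface to pyruvate, lactate and the entrance of the mitochondrion. They were chosen by name for their place in this pathway, with earlier results of these data known, and all 32 were found by Entrez gene ID among the 35092 genes of the count table. In cattle the hatched blastocyst elongates over the following days into a filamentous conceptus, in which the embryonic disc (ED), the source of the embryo proper, lies within extra-embryonic membranes (EEM) made mostly of trophoblast. Glucose enters cells through carriers, is phosphorylated by hexokinase and split into trioses, and ends as pyruvate. Lactate dehydrogenase turns pyruvate into lactate, which leaves by monocarboxylate carriers, whereas the pyruvate dehydrogenase complex commits it to mitochondrial oxidation unless pyruvate dehydrogenase kinases switch the complex off. Elongating ruminant conceptuses are known as strong users of glucose, and high lactate output is a known trait of cultured bovine blastocysts.

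The samples were Holstein conceptuses of day 15. In vitro produced (IVP) embryos came from slaughterhouse oocytes fertilized with semen of 1 bull, cultured without serum and placed on day 7 in recipient cows. In vivo (IVV) embryos came from superovulated donors inseminated with the same bull. Each group came from few cows, so that procedure, superovulation and cow cannot be told apart. The study also reported shorter IVP than IVV embryos, and the part of length was not tested. Embryos in which no disc was seen were discarded by the study, and the rest were cut into pieces, so that an ED piece could also carry membrane. The mRNA of 30 libraries from 17 embryos (8 IVP and 9 IVV) was counted: ED from 7 IVP and 9 IVV embryos, EEM from 6 IVP and 8 IVV embryos, with both tissues in 13 embryos (5 IVP and 8 IVV).

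Libraries held between 48713218 and 63037371 counts on genes. The sum of the 9 disc markers in the table ran from 296 to 1178 CPM in the ED and from 165 to 306 CPM in the EEM, and in embryo IVP11 it was lower in the ED (296 CPM) than in the EEM (306 CPM). Its defining genes were further apart: POU5F1 lay between 16.4 and 228 CPM (counts scaled to a common library size with TMM factors) in the ED, against at most 2.43 in the EEM. NANOG lay between 2.71 and 44.0 CPM in the ED and at most at 0.195 in the EEM, SOX2 was at or near 0 everywhere, and TDGF1 was not in the table. The 12 trophoblast markers summed to between 11566 and 65646 CPM in the ED and between 29457 and 66758 CPM in the EEM, so that trophoblast transcripts were abundant in the pieces labelled ED. The 8 streak and mesoderm markers summed to medians of 30.9 CPM in IVP ED and 111 CPM in IVV ED. XIST, the RNA that coats an inactive X chromosome, was under 1 CPM in every IVP library and in both tissues of 2 IVV embryos, VE3 and VE5, and ran from 45.1 to 424 CPM in the other IVV libraries. The ED and EEM of an embryo deviated from their group means in the same direction (correlation over 0.1) in 12 of 13 embryos, and IVPF13 stood apart at −0.31. In bulk tissue, fewer cells of a type and less RNA per cell cannot be told apart.

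The 32 members together took between 1.25% and 2.68% of the counts of a library. Their median share was 2.17% in IVP ED, 1.90% in IVV ED, 1.92% in IVP EEM and 1.75% in IVV EEM, and the ranges of the groups overlapped. Levels are not compared between genes, since exon lengths were not at hand. PDK4, a kinase of pyruvate dehydrogenase best known from fasting tissues, was at 0 in every IVP ED library, reached at most 2 counts in IVP EEM, 8 counts in IVV ED and 10 counts in IVV EEM, and was too low to be tested. A count of 0 allows up to 3 counts, for counting error only. The other 31 members had counts in every group.

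**Figure D1:**
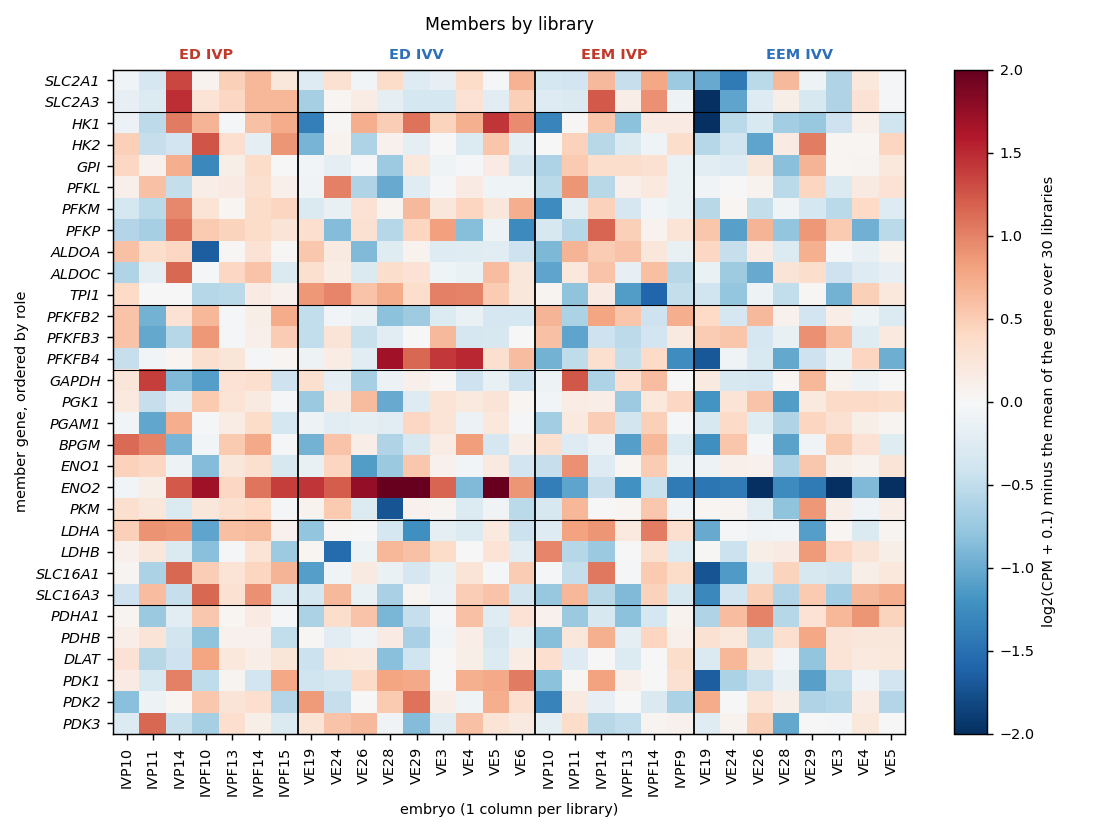
Level of the 31 members other than PDK4 (rows, ordered by role) in the 30 libraries (columns, named by embryo), as log2(CPM + 0.1) minus the mean of the gene over all libraries, with the color scale ending at −2 and 2. ENO2 is above its mean in most ED libraries and below it in all 14 EEM libraries, and TPI1 is above its mean in the 9 IVV ED libraries.

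The first question was whether the procedure left a mark on these genes in the disc. In the ED, 1 of the 31 members tested, TPI1, differed between IVP and IVV embryos (quasi-likelihood test of edgeR, Benjamini-Hochberg adjustment over the 15733 genes tested, genes with an adjusted p under 0.05 taken as called). Of all genes tested, 6.34% were called, 1.4% higher and 4.95% lower in IVP embryos, and of the members 0 were higher and 1 was lower. Without adjustment, p was under 0.05 in 6 members, against 18.4% of all genes. The fitted log2 fold change was above 0 in 19 members and below 0 in 12, with a median of 0.11 beside −0.01 over all genes. For no member did the IVP and IVV libraries lie fully apart, which happened for 0.858% of all genes.

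**Figure D2:**
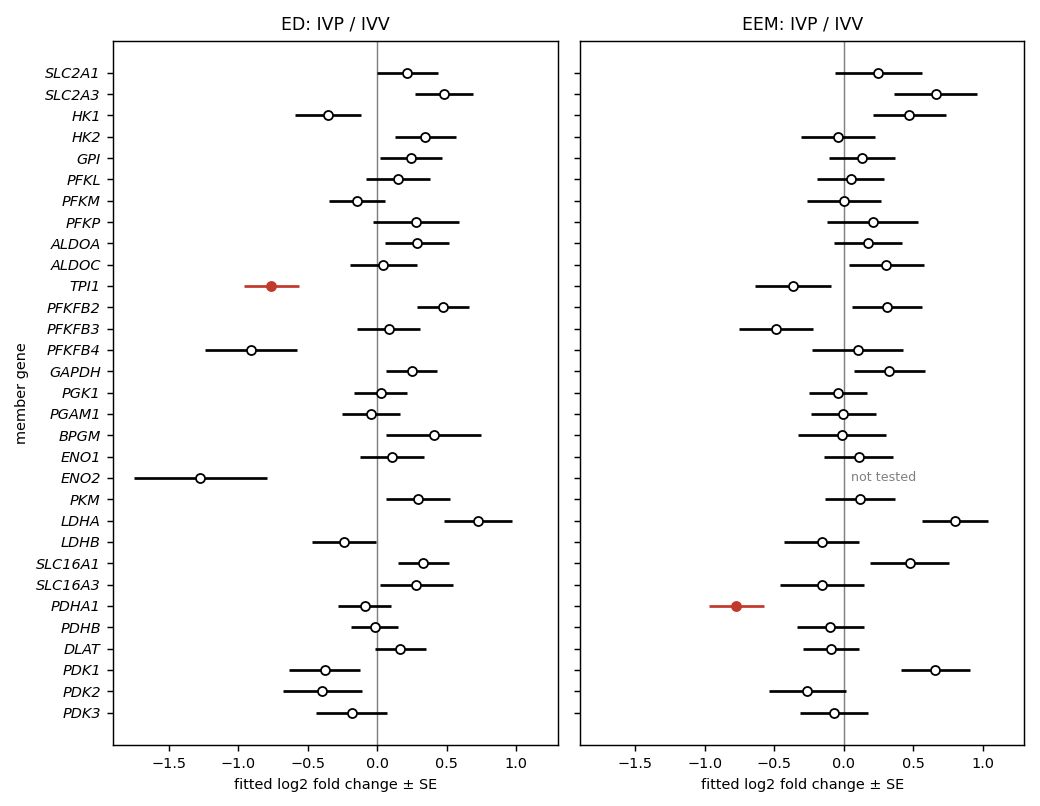
Fitted log2 fold change of IVP over IVV embryos with its SE (bars) for 31 members in the ED (left) and the EEM (right); filled red points passed an adjusted p of 0.05. TPI1 passed in the ED at −0.76 and PDHA1 in the EEM at −0.78, LDHA lay at 0.72 and 0.80 without passing, and ENO2 was not tested in the EEM.

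Glucose uptake was represented by SLC2A1 and SLC2A3, the carriers GLUT1 and GLUT3. SLC2A3 ran from 1521 through a median of 2431 to 5080 CPM in IVP ED and from 1158 through 1624 to 2538 CPM in IVV ED. In the EEM the lowest, median and highest values were 1496, 1852 and 4278 CPM in IVP embryos and 463, 1496 and 2252 CPM in IVV embryos. The top of the IVP range came from embryo IVP14 in both tissues, and the bulk of the groups overlapped. The fold change was 0.48 (SE 0.21, adjusted p 0.202) in the ED and 0.66 (SE 0.30, adjusted p 0.31) in the EEM, neither past the threshold. For SLC2A1 it was 0.22 (SE 0.22) and 0.25 (SE 0.31).

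Hexokinases HK1 and HK2, which trap glucose as glucose 6-phosphate, were not called in either tissue. HK1 was at −0.35 (SE 0.24) in the ED and 0.47 (SE 0.26) in the EEM, and HK2 at 0.35 (SE 0.22) and −0.05 (SE 0.27). GPI, the phosphofructokinase subunits PFKL, PFKM and PFKP, and the aldolases ALDOA and ALDOC also failed the test, with fold changes between −0.15 and 0.29 in the ED and between 0.00 and 0.31 in the EEM.

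TPI1 (Entrez 281543), the triosephosphate isomerase that interconverts the trioses made by aldolase, was lower in the ED of IVP embryos. It ran from 18.2 through a median of 27.2 to 35.6 CPM in the 7 IVP libraries and from 31.8 through 45.2 to 54.8 CPM in the 9 IVV libraries. The overlap was narrow, as 1 IVP embryo, IVP10, lay above the IVV embryos VE6 and VE29. The log2 fold change was −0.76 (SE 0.20, adjusted p 0.0196), a level 0.589 times that of IVV embryos. Without embryo IVPF13 it was −0.66 and no longer passed (adjusted p 0.0638), and with XIST as a covariate it was −0.80 (adjusted p 0.115). Among embryos of low XIST alone, 7 IVP and 2 IVV with no surrogate variable, it was −0.83 (SE 0.39, adjusted p 0.468).

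In the EEM, TPI1 ran from 8.91 through 17.4 to 30.3 CPM in IVP and from 14.0 through 22.9 to 37.8 CPM in IVV embryos. These ranges overlapped widely, and the fold change of −0.37 (SE 0.27, adjusted p 0.699) did not pass. The effect of procedure on TPI1 was not shown to differ between tissues, since the difference was −0.39 (SE 0.33, adjusted p 0.819). Markers of cell types moved in the same comparison of the ED. Of the streak and mesoderm markers 7 of 8 were lower in IVP embryos (median −2.12). All 8 disc markers tested were below 0 (median −0.33), with POU5F1 called at −1.72 (SE 0.36, adjusted p 0.0048), and 11 of 12 trophoblast markers were above 0 (median 0.34), none called. Their part in the result was not tested.

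**Figure D3:**
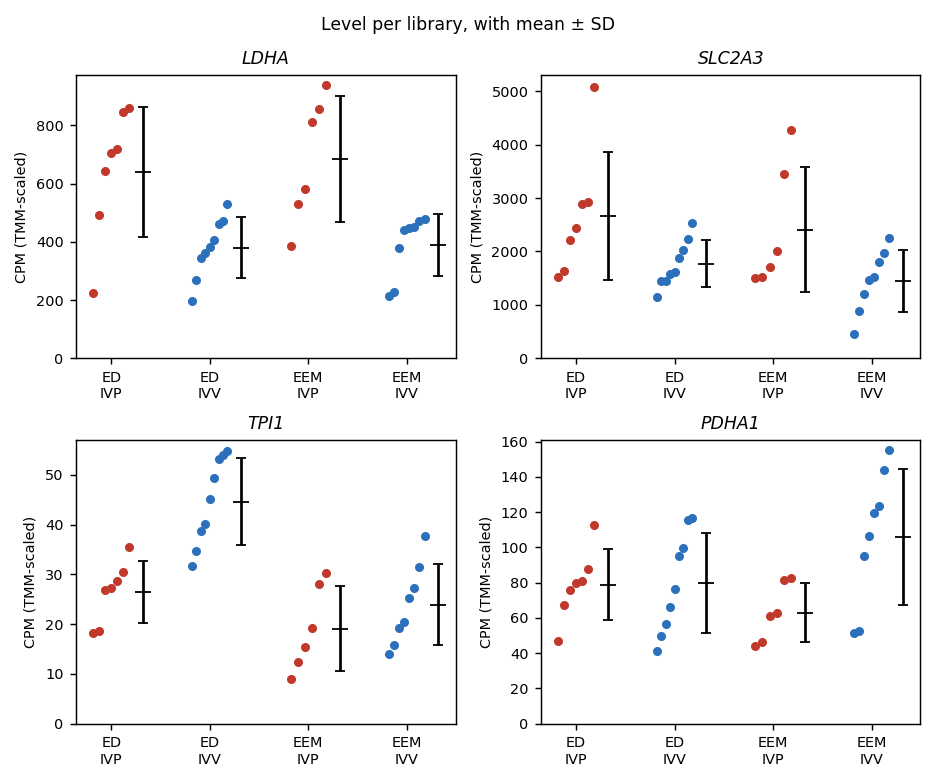
Level of LDHA, SLC2A3, TPI1 and PDHA1 in each library in CPM (points, sorted within a group; red IVP, blue IVV), with the mean and SD of each group as a bar beside them. In the ED TPI1 reaches 35.6 CPM in IVP and starts at 31.8 CPM in IVV embryos, and in the EEM PDHA1 reaches 82.5 CPM in IVP while 6 of 8 IVV embryos lie above that.

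The PFKFB enzymes make and break fructose 2,6-bisphosphate, the strongest activator of phosphofructokinase. In the ED, PFKFB4 lay between 1.24 and 2.20 CPM in IVP and between 1.47 and 5.82 CPM in IVV embryos, with 5 of 9 IVV values above the IVP range and VE5 level with its top. Its fold change of −0.91 (SE 0.33, adjusted p 0.108) did not pass, and DESeq2 called it (−0.87, adjusted p 0.0461). PFKFB2 was at 0.47 (SE 0.19, adjusted p 0.147) in the ED and passed with DESeq2 (adjusted p 0.0496) and without IVP11 (0.73, adjusted p 0.021), and PFKFB3 at 0.08 (SE 0.23). In the EEM, the 3 genes lay between −0.49 and 0.31, and none passed.

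In lower glycolysis edgeR called no member in either tissue. GAPDH ran from 2017 to 11248 CPM in IVP ED and from 2723 to 5375 CPM in IVV ED, both extremes belonging to IVP embryos, and its fold changes were 0.25 (SE 0.18) in the ED and 0.33 (SE 0.26) in the EEM. PGK1, PGAM1, ENO1 and PKM, which complete the path to pyruvate, lay between −0.05 and 0.29 in the ED and between −0.04 and 0.12 in the EEM. BPGM, the side branch that makes 2,3-bisphosphoglycerate, was at 0.40 (SE 0.34) and −0.01 (SE 0.32). ENO2, the enolase best known from neurons, lay at −1.27 (SE 0.48, adjusted p 0.124) in the ED and was too low for a test in the EEM. In the ED it passed with DESeq2 (−1.25, adjusted p 0.0491), with XIST as a covariate (−2.05, adjusted p 0.0399) and without VE4 (−1.45, adjusted p 0.0259). Without VE5, the embryo with the highest value, it was at −0.69 (adjusted p 0.53).

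Of the lactate genes, LDHA, whose subunit forms the isozymes of lactate-producing tissues, had the highest fold change in both tissues. In the ED it ran from 223 through 705 to 860 CPM in IVP and from 197 through 381 to 530 CPM in IVV embryos. In the EEM the values were 387, 696 and 937 CPM in IVP and 215, 443 and 479 CPM in IVV embryos. In each tissue, 5 IVP libraries lay above all IVV libraries, while IVPF10 and IVPF15 in the ED and IVP10 in the EEM lay among the IVV values. The fold change was 0.72 (SE 0.24, adjusted p 0.0832) in the ED and 0.80 (SE 0.24, adjusted p 0.058) in the EEM, and neither passed.

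LDHA was called by DESeq2, at 0.74 (adjusted p 0.0478) in the ED and 0.80 (adjusted p 0.0202) in the EEM. It also passed in the ED without IVPF10, at 0.89 (adjusted p 0.0142), and in the EEM without IVP10 (0.92, adjusted p 0.0203), IVPF9 (0.88, adjusted p 0.0496) or VE28 (0.91, adjusted p 0.0262). It moved to 0.49 (adjusted p 0.733) in the ED and 0.47 (adjusted p 0.917) in the EEM with XIST as a covariate. The ED library of IVPF10 had the lowest trophoblast sum of the ED libraries, 11566 CPM, and the part of tissue make-up was not tested. LDHB, the subunit of oxidative tissues, was at −0.24 (SE 0.23) in the ED and −0.16 (SE 0.27) in the EEM. The carriers SLC16A1 and SLC16A3 were at 0.33 (SE 0.18) and 0.28 (SE 0.26) in the ED and at 0.47 (SE 0.28) and −0.16 (SE 0.31) in the EEM.

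The balance of 2 related genes within a library needs no scaling between libraries, and 9 such pairs were compared with two-sided exact permutation tests over embryos. The mean log2 ratio of LDHA over LDHB was 0.33 ± 0.43 (SD, n = 7) in IVP ED and −0.56 ± 0.92 (SD, n = 9) in IVV ED. The difference of 0.89 had an exact permutation p of 0.0322 and an adjusted p of 0.165. In the EEM it was 1.05 (exact permutation p 0.0446, adjusted p 0.188). For SLC2A1 over SLC2A3 the mean log2 ratio was −2.68 ± 0.19 (SD, n = 7) in IVP ED and −2.39 ± 0.21 (SD, n = 9) in IVV ED. The difference was −0.29 in the ED (exact permutation p 0.0114, adjusted p 0.102) and −0.48 in the EEM (exact permutation p 0.0246, adjusted p 0.165). Over the 36 tests of ratios, 0 passed after adjustment, and the 9 of them between tissues of the 5 IVP pairs could not go below a p of 0.0625.

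In the EEM, 1 of 30 members tested was called between IVP and IVV embryos, against 3.81% of 14718 genes, of which 2.29% were higher and 1.52% lower. No member was higher. Without adjustment 4 members had a p under 0.05 (13.7% of all genes), 17 had a fold change above 0, and the median was 0.07 beside 0.00 over all genes. No member separated the groups fully, as 0.897% of genes did.

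The member called was PDHA1 (Entrez 407109), the X-linked catalytic E1 alpha subunit of pyruvate dehydrogenase. In the EEM it ran from 43.9 through 61.9 to 82.5 CPM in 6 IVP embryos and from 51.4 through 113 to 155 CPM in 8 IVV embryos. The 6 IVV embryos other than VE19 and VE28 lay above every IVP embryo. The log2 fold change was −0.78 (SE 0.20, adjusted p 0.0232), a level 0.584 times that of IVV embryos. The call was lost without IVP14 (−0.68, adjusted p 0.0805) or IVPF13 (−0.72, adjusted p 0.0657), with no surrogate variable (−0.75, adjusted p 0.178) and with the final letter of the sample titles in the model (−0.78, adjusted p 0.0573).

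In the ED, PDHA1 ran from 46.7 through 80.0 to 113 CPM in IVP and from 41.4 through 76.6 to 117 CPM in IVV embryos, with nearly the same range, and the fold change was −0.09 (SE 0.19). The difference between the tissues was 0.69 (SE 0.20, adjusted p 0.12) and was called by DESeq2 only. With XIST as a covariate the EEM fold change moved to −0.45 (adjusted p 0.864). In the 2 IVV embryos with low XIST, VE3 and VE5, EEM PDHA1 was 124 and 106 CPM, also above every IVP embryo. Among embryos of low XIST alone, with no surrogate variable, the fold change was −0.89 (adjusted p 0.32). XIST level followed procedure in all but these 2 IVV embryos, so that a fit with XIST as a covariate cannot fully separate them. The sex of the embryos is not in the labels, and its part in the result was not tested. Among markers in the EEM, 9 of 12 trophoblast genes (median 0.35) and 6 of 7 disc genes tested (median 0.31) were above 0 in IVP embryos with none called. Of the hypoblast list 7 of 9 genes tested were above 0 (median 0.22). The 1 called was TTR, which was lower (adjusted p 3.21e-05). It had at most 1 count in any IVP EEM library and 0 to 224 counts in IVV EEM libraries. Their part was not tested either.

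**Figure D4:**
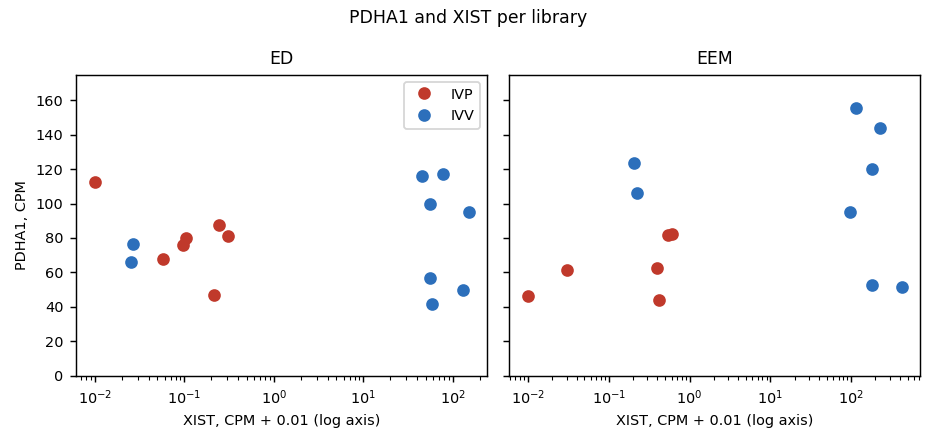
PDHA1 (CPM, vertical) against XIST (CPM + 0.01, horizontal, log axis) in each library of the ED (left) and EEM (right), IVP in red and IVV in blue. All IVP embryos are on the left with XIST under 1 CPM, where the 2 IVV embryos reach 124 and 106 CPM of PDHA1 in the EEM and the IVP embryos at most 82.5 CPM.

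The other X-linked members, PGK1 and PDK3, were not called. PGK1 was at 0.02 (SE 0.19) in the ED and −0.04 (SE 0.21) in the EEM, and PDK3, a kinase of the complex, at −0.18 (SE 0.26) and −0.07 (SE 0.24). The partners of PDHA1 in the complex, PDHB of the E1 enzyme and DLAT, its E2 acetyltransferase, were at −0.10 (SE 0.24) and −0.09 (SE 0.20) in the EEM. The kinase PDK1, a known target of hypoxia-inducible factor, was at 0.66 (SE 0.25, adjusted p 0.167) in the EEM, where it passed without VE28 (0.83, adjusted p 0.0404), and −0.38 (SE 0.25, adjusted p 0.482) in the ED. PDK2 was at −0.40 (SE 0.29) in the ED and −0.26 (SE 0.28) in the EEM.

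The effect of procedure was also set between the tissues, within the 13 embryos that gave both, as the fold change in the ED minus that in the EEM. For 0 of 31 members did it differ past the threshold (edgeR, 1.02% of 16784 genes called), with 6 members at an unadjusted p under 0.05 (10.3% of genes), and DESeq2 called 1, PDHA1. The 6 were ENO2 (−2.41, SE 0.83, adjusted p 0.223), PFKFB4 (−1.15, SE 0.43, adjusted p 0.286), PDK1 (−0.91, SE 0.28, adjusted p 0.148), HK1 (−0.71, SE 0.30, adjusted p 0.369), PFKFB3 (0.49, SE 0.22, adjusted p 0.438) and PDHA1, named after their values were seen. Without embryo VE4 the difference for ENO2 was −2.97 and passed (adjusted p 0.0252).

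The last question was how the tissues differed within an embryo. In IVV embryos, 7 of 31 members differed between ED and EEM, 6 higher in the ED and 1 lower, against 22.1% of 16784 genes called, 15.6% higher and 6.55% lower. Without adjustment 11 members had a p under 0.05, against 34.3% of all genes. The median member was at 0.00 and the median of all genes at −0.10. The direction was the same in all 8 embryos for 5 members, and for 18.7% of all genes. In IVP embryos 4.83% of all genes were called, 4.18% higher in the ED and 0.649% lower, and 0 of 31 members by edgeR (2 at an unadjusted p under 0.05) and by DESeq2. Leaving out IVPF13, whose tissues did not deviate together, left these counts at 7 and 0. These fits share the ED and EEM libraries of the comparisons of procedure. Ranges and medians in CPM below cover all libraries of a group, also those of embryos with 1 tissue (VE6, IVPF10, IVPF15 and IVPF9).

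ENO2 (Entrez 526006) had the largest fold change of the members. In IVV embryos it ran from 0.298 through 1.88 to 9.73 CPM in the ED and from 0 through 0.174 to 0.300 CPM in the EEM, at most 16 counts in the latter. It was higher in the ED in 7 of 8 embryos, and in VE4 the tissues were level at 0.298 and 0.300 CPM. The fold change was 4.14 (SE 0.57, adjusted p 1.78e-05). In IVP embryos all 7 ED libraries ran from 0.611 to 2.29 CPM and all 6 EEM libraries from 0.175 to 0.441 CPM. Among IVP embryos with both tissues ENO2 was higher in the ED in 5 of 5, at 1.73 (SE 0.62, adjusted p 0.131).

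HK1 was higher in the IVV ED, from 13.3 through 56.0 to 92.0 CPM there and from 5.45 through 24.6 to 36.9 CPM in the EEM, and every embryo showed the direction (fold change 1.16, SE 0.19, adjusted p 9.53e-05). HK2 was at −0.11 (SE 0.18) and was not called. The log2 ratio of HK1 over HK2 was higher in the ED by 1.27 and in 8 of 8 embryos (exact permutation p 0.00781, the smallest that 8 pairs allow, adjusted p 0.0938). In IVP embryos HK1 was at 0.44 (SE 0.23, adjusted p 0.357).

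TPI1 was 2.01 times as high in the IVV ED as in the EEM, in 8 of 8 embryos (fold change 1.01, SE 0.21, adjusted p 0.0012). In IVP embryos it was higher in 4 of 5, at 0.62 (SE 0.26, adjusted p 0.215). ALDOC, the brain-type aldolase, was higher in 7 of 8 IVV embryos at 0.42 (SE 0.15, adjusted p 0.0455), just inside the threshold. That call held in 6 of 13 fits that left out 1 embryo, being lost without IVPF14, VE19, VE24, VE26, VE28, VE3 or VE5 (adjusted p up to 0.134), and was lost without the embryo block (adjusted p 0.431) and with no filter on low counts (0.41, adjusted p 0.0808).

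PFKFB4 was higher in the IVV ED in 8 of 8 embryos (fold change 1.33, SE 0.27, adjusted p 0.00119). It ran from 1.47 through 2.73 to 5.82 CPM over all 9 IVV ED libraries and from 0.470 through 1.33 to 2.38 CPM in the IVV EEM. The gap was narrow in VE26, with 1.47 and 1.38 CPM, and wide in VE28, with 5.82 and 0.810 CPM. The relatives PFKFB2 and PFKFB3 lay on the other side of 0, at −0.39 (SE 0.16, adjusted p 0.0823) and −0.36 (SE 0.14, adjusted p 0.0708), and did not pass. In IVP embryos PFKFB4 was at 0.17 (SE 0.34, adjusted p 0.848).

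At the entrance of the mitochondrion PDK1 was higher and PDHA1 lower in the ED of IVV embryos, each in 8 of 8 embryos. Over all 9 IVV ED libraries PDK1 ran from 10.6 through 23.1 to 29.0 CPM, the top being VE6, which had no EEM library. In the EEM it ran from 4.40 through 10.1 to 13.3 CPM (fold change 0.96, SE 0.18, adjusted p 0.000396). PDHA1 was at −0.43 (SE 0.13, adjusted p 0.0185), which did not pass without VE3 (−0.39, adjusted p 0.0558) or VE5 (−0.40, adjusted p 0.0634), without the embryo block (−0.45, adjusted p 0.328) or with at least 10 counts required in every library (−0.36, adjusted p 0.0674). In IVP embryos PDK1 was at 0.05 (SE 0.22) and PDHA1 at 0.26 (SE 0.16).

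**Figure D5:**
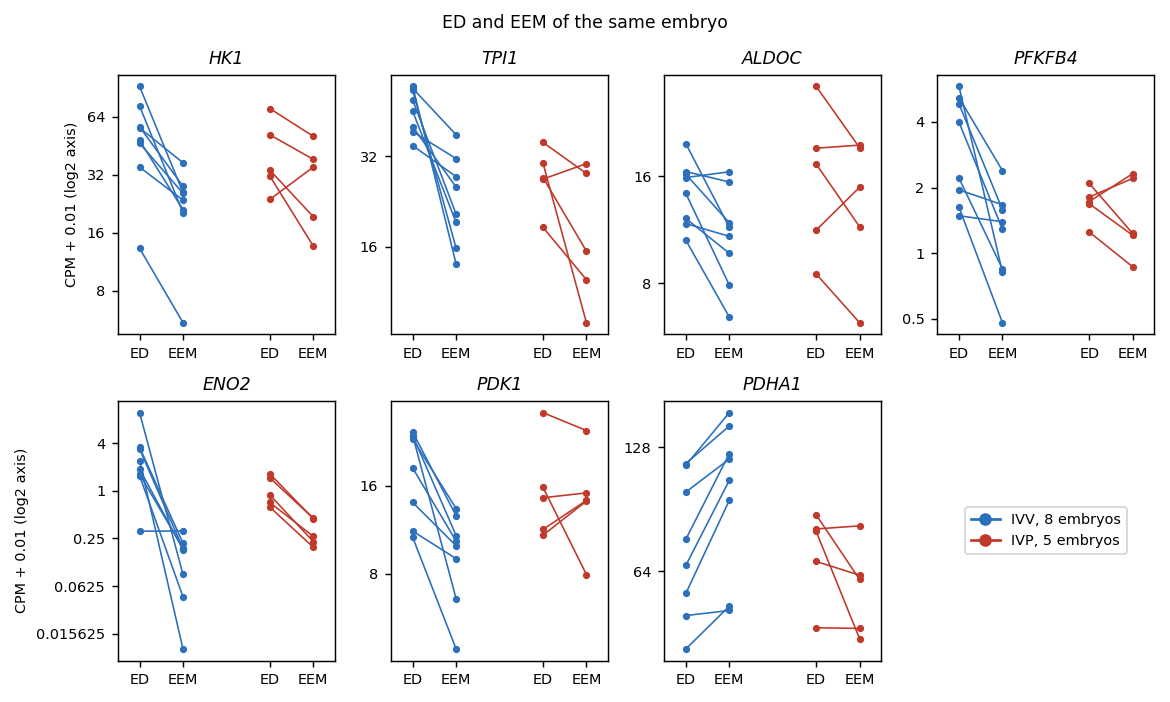
Level of the 7 members called between tissues in IVV embryos, as CPM + 0.01 on a log2 axis, with a line from the ED to the EEM of each embryo (blue 8 IVV, red 5 IVP). In IVV embryos HK1, TPI1, PFKFB4 and PDK1 fall and PDHA1 rises along every line, and in IVP embryos PDK1 and PDHA1 run in both directions.

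Trophoblast markers moved with the tissue contrast, since 4 of 12 were lower in the IVV ED and all 12 were below 0. Of the disc markers 7 of 8 tested were called higher in the IVV ED and 3 of 8 in the IVP ED, and all 8 were above 0 in both. In the IVV ED 7 of 8 streak and mesoderm markers were higher (median 3.56), the hypoblast markers PDGFRA and GATA4 were higher and TTR lower, and ALAS2 of the blood list was higher at 2.55. The part of tissue make-up in the values of the members was not tested. Of the members not called in IVV embryos, SLC2A3 was at 0.33 (SE 0.17, adjusted p 0.171), SLC2A1 at 0.38 (SE 0.18, adjusted p 0.142), GAPDH at −0.15 (SE 0.12), PKM at −0.20 (SE 0.16), ENO1 at −0.15 (SE 0.17), LDHA at −0.01 (SE 0.12) and ALDOA at −0.18 (SE 0.20).

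Beyond the members, 21 of 22 further genes of glycolysis and pyruvate handling were tested, and 0 were called between IVP and IVV embryos in either tissue (edgeR, 3 at an unadjusted p under 0.05 in the ED and 0 in the EEM). Of 13 other sugar and lactate carriers 10 were tested in each tissue. The fructose carrier SLC2A5 was higher in IVP EEM, where it ran from 17.7 through 46.3 to 72.7 CPM against 0.214, 5.69 and 45.2 CPM in IVV EEM (fold change 2.10, SE 0.58, adjusted p 0.0386). In the ED it ran from 0.0382 to 143 CPM in IVP and from 0.676 to 26.8 CPM in IVV embryos, at 2.02 (SE 0.79, adjusted p 0.144), and the groups overlapped in both tissues.

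Of 6 genes of gluconeogenesis 5 were tested, and FBP1, the fructose bisphosphatase that opposes phosphofructokinase, was lower in IVP ED at −1.81 (SE 0.54, adjusted p 0.0454). Its levels were low, with medians of 0.172 CPM in IVP and 0.592 CPM in IVV ED. None of the pentose phosphate, fructose and polyol, or glycogen genes was called between procedures in either tissue (edgeR, 1 at an unadjusted p under 0.05, a glycogen gene in the ED).

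Of 22 tested hypoxia regulators and targets outside the members, 1 was called in each tissue, and it was DDIT4, a stress-induced inhibitor of mTOR signaling. DDIT4 ran from 51.0 through 109 to 150 CPM in IVP ED and from 19.3 through 36.2 to 63.6 CPM in IVV ED (fold change 1.55, SE 0.27, adjusted p 0.000883). In the EEM it was at 1.84 (SE 0.36, adjusted p 0.003). HIF1A, the oxygen-regulated subunit of hypoxia-inducible factor, was not called, at 0.29 (SE 0.32) and 0.81 (SE 0.33, adjusted p 0.215).

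Among 6 other regulators, TXNIP, a glucose-induced protein that restrains glucose uptake, was higher in IVP ED at 1.36 (SE 0.34, adjusted p 0.0167). It lay at −0.09 (SE 0.40) in the EEM, and the difference between tissues of 1.13 (SE 0.49, adjusted p 0.411) did not pass. PPARGC1A, the coactivator PGC-1 alpha of mitochondrial biogenesis, was lower in IVP EEM, from 1.16 to 4.67 CPM against 5.13 to 6.23 CPM in IVV EEM, with no overlap (fold change −1.07, SE 0.27, adjusted p 0.0229).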

How the data were processed

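The authors filtered paired reads of unstranded poly(A) libraries with SOAPnuke, aligned them with STAR 2.7.0b to ARS-UCD1.3 and deposited raw counts per Entrez gene from featureCounts (Subread 2.0.3). The submitters' processing notes also name FastQC 0.11.9 and Trimmomatic. How reads matching several loci were counted is not given, which leaves members with processed copies, such as GAPDH and LDHA, uncertain. Copies of the called members TPI1 and PDHA1 were not looked for, so the same doubt was not settled for them. Symbols came from RefSeq (ARS-UCD2.0), which named 31630 genes. No positions were used.

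Counts were analysed in R 4.3.3 with edgeR 4.0.16 (TMM, filterByExpr with a minimum of 10 counts, quasi-likelihood test, Benjamini-Hochberg over all genes tested, threshold 0.05). IVP and IVV embryos were compared within each tissue with 1 surrogate variable estimated from the counts (sva 3.50.0). The study controlled for morphology with sva, and whether this variable follows morphology was not tested. The ED and EEM were compared in 26 libraries with embryo as a block, because both pieces came from the same embryo. A fold change is log2, IVP over IVV or ED over EEM. SE is the fold change over the root of F. Ratios added 0.5 to each count and were tested in Python 3.11.15 with scipy 1.17.1. The scripts were tested on simulated data. No libraries were copies of each other (chi-square per degree of freedom at least 66.2 over 100 pairs).

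The members and lists were chosen with earlier results of these data known. All members are accounted for. Members called between procedures or in the difference between tissues, and the 6 largest of those called between tissues in IVV embryos, are given with their statistics. Genes of the other metabolic and regulatory lists are named where called between procedures. Marker lists are given by sums and counts, with few genes named. Alternatives were DESeq2 1.42.0, other normalization, filters and covariates, halved counts, no block, and leaving out each embryo. Restriction to embryos with XIST under 1 CPM was added after the data were seen. It kept all IVP embryos and 2 IVV embryos and used no surrogate variable. Methylation was not analysed here.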

Additional observations from a re-analysis of the deposited data

Results flagged for a closer look

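In 126 checks of a member within a group, 9 had a single library far from the rest by Dixon's test, where chance gives about 1 in 20. HK1 was low in both tissues of the IVV embryo VE19, at 13.3 CPM in the ED beside a group median of 56.0 CPM and at 5.45 CPM in the EEM beside 24.6 CPM. The ED of the IVP embryo IVPF10 was low in 3 members: GPI at 219 CPM beside 579 CPM, ALDOA at 491 CPM beside 1880 CPM, and LDHA at 223 CPM beside 705 CPM. That library also had the lowest trophoblast sum of the IVP ED, 11566 CPM beside 25244 CPM in the next lowest, and the part of tissue make-up was not tested. In the IVV ED, PKM was low in VE28 at 989 CPM beside 3127 CPM, and LDHB was low in VE24 at 185 CPM beside 551 CPM. In the IVV EEM, PDHB was low in VE26 at 145 CPM beside 244 CPM, and PDK4 was at 0.231 CPM in VE28, where the group median was 0.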

How the results depend on the processing

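In the ED, 1 member was called between procedures. DESeq2 called 5 (TPI1, ENO2, PFKFB2, PFKFB4 and LDHA), and 1512 of all 15733 genes tested, against 998 with edgeR. Low-XIST embryos alone gave 0 (366 of 16890 genes called), and leaving out 1 embryo gave 0 to 2. With XIST as a covariate the 1 call was ENO2 and not TPI1. TPI1 stayed between −0.86 and −0.66 when 1 embryo was left out. In the EEM, the count of 1 went to 0 with no surrogate variable, 0 with XIST as a covariate, 0 with the title letter, 0 in low-XIST embryos alone, 2 with DESeq2 and 0 to 3 when 1 embryo was left out. PDHA1 ran from −0.87 to −0.68 there. Between tissues in IVV embryos, leaving out 1 embryo gave 5 to 8 members. Without the replicate block 5 were called, ALDOC (0.39, adjusted p 0.431) and PDHA1 (−0.45, adjusted p 0.328) being lost. In IVP embryos 1 member, ENO2, was called with no filter on low counts and 1 in all 30 libraries without the block, and 0 to 1 when 1 embryo was left out. For the difference between tissues DESeq2 called 1 member (PDHA1), and leaving out 1 embryo gave 0 to 1, and for ratios 0 to 1. No value of a called member reversed its sign under the alternatives run. Levels per exon length could not be computed. The causes were not tested. In the EEM, ENO2 and PDK4 reached at most 24 and 10 counts, too few for a test between procedures in the main fit.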

Other observations

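Genes of the further lists also differed between tissues of the same embryo, and those named in this paragraph were chosen after their values were seen. TKTL1, a transketolase-like gene, was higher in the ED at 5.84 (SE 0.55, adjusted p 2.04e-07) in IVV and 7.52 (SE 0.81, adjusted p 7.67e-06) in IVP embryos (edgeR). It ran from 1.89 to 22.8 CPM in the ED and reached at most 0.263 CPM in the EEM, and it was the 1 gene of 8 in the pentose phosphate list that was called. PYGL, the liver-type glycogen phosphorylase, was higher in the ED in both procedures at 2.33 (SE 0.29, adjusted p 4.86e-06) and 1.93 (SE 0.36, adjusted p 0.00256). PCK2, the mitochondrial enzyme that makes phosphoenolpyruvate, was higher at 1.64 (SE 0.25, adjusted p 4.57e-05) and 1.46 (SE 0.32, adjusted p 0.00787). The carrier SLC2A2 was lower in the ED at −0.86 (SE 0.20, adjusted p 0.00391) and −0.91 (SE 0.25, adjusted p 0.0427).

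The lactate carrier SLC16A7 was higher in the IVV ED, where it ran from 0.963 to 3.99 CPM against 0 to 0.278 CPM in the EEM (3.68, SE 0.45, adjusted p 3.91e-06). In IVP embryos it was at 1.25 (SE 0.50, adjusted p 0.185), and the difference between procedures of −2.43 (SE 0.67, adjusted p 0.0871) did not pass.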
